A study of Mus musculus with 8 samples.

Results

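Serpini1, Myl4, Tktl1, Igfbp7 and Pecam1 are 5 mouse genes of unrelated function that were chosen by their array signal, which was higher with 4-hydroxytamoxifen (4OHT) in T29 cells carrying an inducible Ikaros. They are read by 12 probe sets of the 45037 examined, 3 each for Serpini1, Tktl1 and Igfbp7, 2 for Myl4 and 1 for Pecam1, and every probe set annotated with exactly 1 of these symbols was kept. In all, 18193 genes were represented. The values that chose the genes are those of the 4OHT and ethanol arrays of Ik1ER cells, so the contrast between these arrays is given for the 5 genes as a description without a test, and the same holds for any comparison that draws on them.

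T29 is a mouse thymic lymphoma cell line. It had been transduced with the retroviral vector MigR1, either carrying Ik1ER, an Ikaros 1 protein joined to an estrogen receptor domain that 4OHT switches on, or empty. Both lines were cultured for 24 h with 100 nM 4OHT or with ethanol, the solvent, and their RNA was read on Affymetrix arrays, with 2 arrays in each group. The 4 groups were thus Ik1ER cells with 4OHT, Ik1ER cells with ethanol, MigR1 cells with 4OHT and MigR1 cells with ethanol. All come from 1 cell line, and the labels do not say whether the transduced cells were clones or whether each array had a culture of its own. The p-values below therefore reflect array-to-array spread that may be no more than technical.

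Ikaros, the product of Ikzf1, is a zinc finger protein of lymphocytes that binds DNA at sites with the core letters GGGAA and recruits chromatin remodelling complexes, and it is known as a tumour suppressor of the T lineage. The 5 genes are best known from other tissues. Serpini1 encodes neuroserpin, a secreted protease inhibitor of neurons. Myl4 encodes a myosin light chain of embryonic and atrial muscle. Tktl1 encodes a relative of transketolase, an enzyme of the pentose phosphate pathway. Igfbp7 encodes a secreted protein of the extracellular matrix that is related to the insulin-like growth factor binding proteins, and Pecam1 encodes CD31, an adhesion and inhibitory receptor of endothelium, platelets and leukocytes.

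The stretch before the start site of 4 of the genes shows how often the Ikaros core letters stand there. Promoter windows of 250 bases before to 50 after the start came from RefSeq, build GRCm38.p6, and are printed 5′ to 3′ on the gene's own strand up to the tenth transcribed base. For Myl4 only the 52 bases outside the neighbouring gene Cdc27 are printed. Capitals mark GGGAA or its reverse complement TTCCC. Serpini1 lies on the plus strand at chr3:75557243-75557502, Myl4 on the plus strand at chr11:104550621-104550672, Tktl1 on the plus strand at chrX:74177009-74177268 and Igfbp7 on the minus strand at chr5:77408036-77408295.
Serpini1: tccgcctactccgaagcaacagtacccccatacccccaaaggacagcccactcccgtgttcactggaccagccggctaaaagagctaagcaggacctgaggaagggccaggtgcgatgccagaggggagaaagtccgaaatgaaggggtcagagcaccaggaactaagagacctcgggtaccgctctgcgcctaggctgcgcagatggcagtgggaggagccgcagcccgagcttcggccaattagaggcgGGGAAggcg
Myl4: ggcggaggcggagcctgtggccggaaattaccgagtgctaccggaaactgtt
Tktl1: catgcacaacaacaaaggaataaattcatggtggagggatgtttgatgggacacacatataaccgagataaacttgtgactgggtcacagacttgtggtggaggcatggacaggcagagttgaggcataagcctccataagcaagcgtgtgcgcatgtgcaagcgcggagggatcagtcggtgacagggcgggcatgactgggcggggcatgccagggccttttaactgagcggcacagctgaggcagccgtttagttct
Igfbp7: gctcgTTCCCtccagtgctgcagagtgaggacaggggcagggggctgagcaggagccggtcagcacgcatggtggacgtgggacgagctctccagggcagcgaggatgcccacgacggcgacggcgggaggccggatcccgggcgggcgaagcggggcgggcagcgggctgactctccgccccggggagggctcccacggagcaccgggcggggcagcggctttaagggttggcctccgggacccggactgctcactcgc
GGGAA was searched on both strands of the full windows. It stood in the window of Serpini1, from base 2 to base 6 of the transcript, and in that of Igfbp7 on the other strand, from base -245 to base -241, and in neither of the other windows. Over all 32851 RefSeq windows of this length, 62.7% held GGGAA, so a match is common. The longer TGGGAA, which contains GGGAA, stood in 25.6% of all windows and in 0 of these 4. A match of letters is a description and does not show a bound site.

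The arrays were first checked against their labels. The Ikzf1 probe set 1421303_at read 11.27 and 10.45 in Ik1ER cells with 4OHT, 11.17 and 10.60 in Ik1ER cells with ethanol, 8.16 and 8.51 in MigR1 cells with 4OHT, and 8.12 and 8.14 in MigR1 cells with ethanol, all on the log2 scale of the deposited values. All 4 Ik1ER arrays lay above all 4 MigR1 arrays, with or without 4OHT, whereas another Ikzf1 probe set, 1436312_at, read 9.97 to 10.44 on the 8 arrays with no such separation. Of 14 T cell markers, 12 were measured and 11 had a mean above 5.27, the highest mean among the 27 Bacillus control probe sets, which is used here as the gauge of a dim signal. The replicate 2 arrays of Ik1ER cells stood apart in control probe sets: the excess of 3′ over 5′ signal of the transferrin receptor controls was 1.91 with 4OHT and 1.66 with ethanol, against 1.16 to 1.39 on the other 6 arrays. For the brightest probe set of each of the 5 genes, the difference is therefore given with and without these arrays.

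The signal of all 5 genes was higher in Ik1ER cells with 4OHT than in any other group on at least 1 probe set. Both Ik1ER 4OHT arrays lay above all of the other 6 on 9 of the 12 probe sets. Of all probe sets on the array, 8.95% did so, and because the genes were chosen for this contrast, nothing is read from the members' count. Of the 12 probe sets, 9 had a mean above the highest Bacillus mean. The 7 that were both bright and separated in this way showed differences between 4OHT and ethanol in Ik1ER cells from 0.79 to 2.11 on the log2 scale. In a culture measured in bulk, less RNA per cell and fewer cells of a type cannot be told apart, and the same holds for more.

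**Figure D1:**
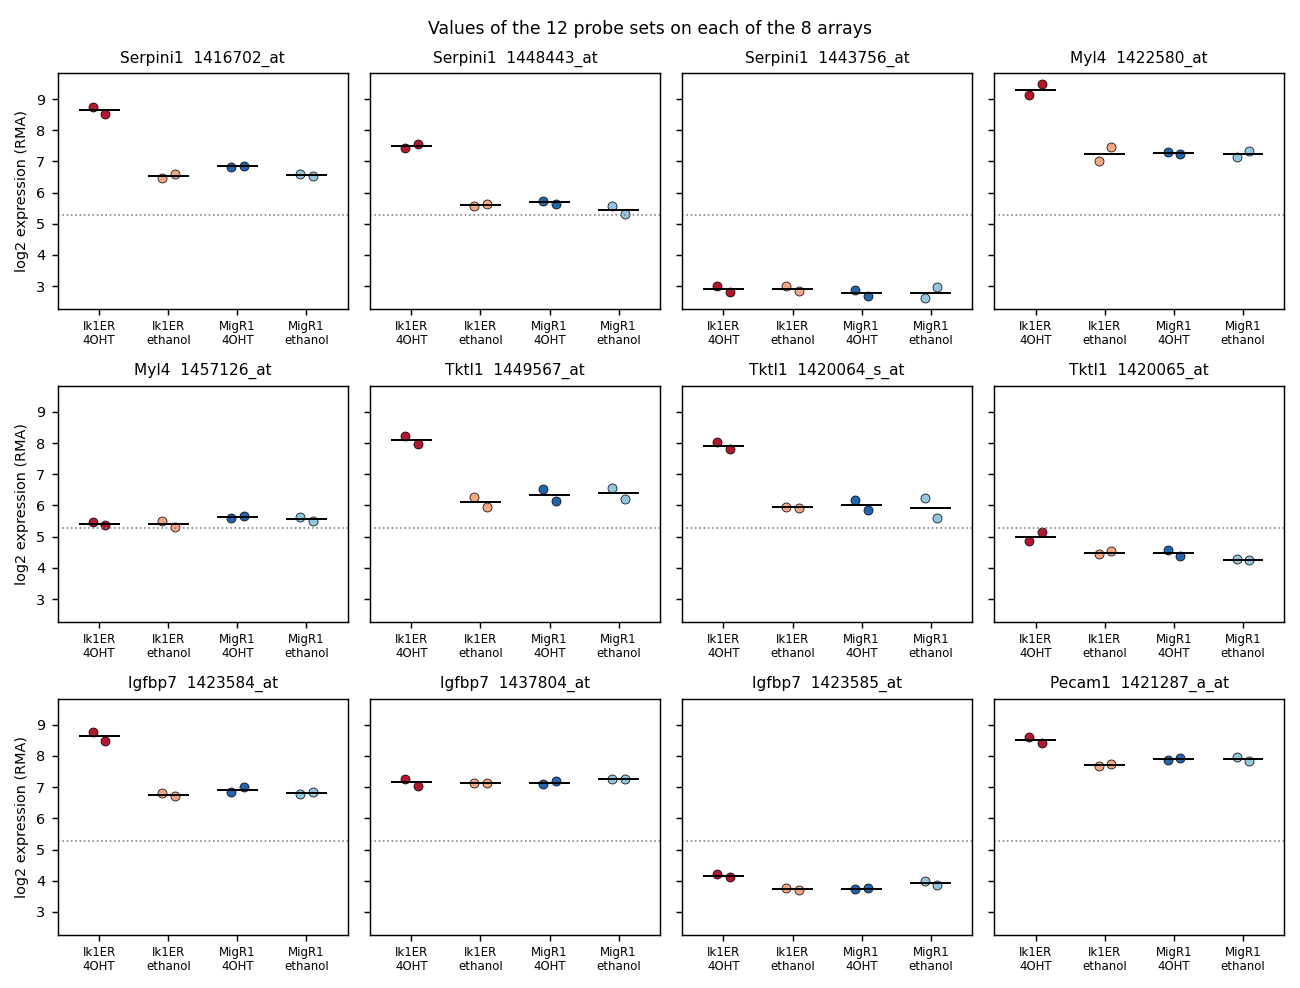
Log2 array signal (vertical axis) of the 12 probe sets of the 5 genes, 1 panel per probe set, with a point for each of the 2 arrays of the 4 groups a bar at each group mean and a dotted line at the highest Bacillus mean. The Ik1ER 4OHT points lie above the rest for 9 probe sets, while 3 probe sets show no such separation.

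Serpini1 had the largest fitted difference of the 5 genes, close to that of Myl4. On probe set 1416702_at, the brightest of its 3, it read 8.73 and 8.54 in Ik1ER cells with 4OHT, 6.46 and 6.60 in Ik1ER cells with ethanol, 6.83 and 6.85 in MigR1 cells with 4OHT, and 6.59 and 6.53 in MigR1 cells with ethanol. The lower Ik1ER 4OHT array stood 1.69 above the highest of the other 6, and these 6 lay within a narrow band. The mean was 8.63 ± 0.14 with 4OHT against 6.53 ± 0.10 with ethanol in Ik1ER cells (SD, n = 2 each), a difference of 2.11 with a standard error (SE) of 0.10, or 4.31-fold. Without the replicate 2 arrays of Ik1ER cells the difference was 2.28.

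The next probe set of Serpini1, 1448443_at, is annotated to the same transcript and was likewise highest on both Ik1ER 4OHT arrays. It read 7.42 and 7.57 in Ik1ER cells with 4OHT, 5.56 and 5.63 in Ik1ER cells with ethanol, 5.74 and 5.65 in MigR1 cells with 4OHT, and 5.57 and 5.31 in MigR1 cells with ethanol. The Ik1ER difference was 1.90 (SE 0.11), or 3.72-fold. The third probe set, 1443756_at, had 2.62 to 3.01 on all 8 arrays, below the highest Bacillus mean, and its difference was -0.02 (SE 0.14). The groups overlapped fully there, so the gene's difference was seen on its 2 bright probe sets and not on its dim one.

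Myl4 had a difference of similar size on 1 of its 2 probe sets. Probe set 1422580_at read 9.12 and 9.48 in Ik1ER cells with 4OHT, 7.003 and 7.466 in Ik1ER cells with ethanol, 7.29 and 7.22 in MigR1 cells with 4OHT, and 7.13 and 7.34 in MigR1 cells with ethanol. The Ik1ER 4OHT arrays stood at least 1.66 above the others, although the 2 arrays of each Ik1ER group differed more than for Serpini1. The difference was 2.07 (SE 0.17), or 4.20-fold, and 2.12 without the replicate 2 arrays.

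The other Myl4 probe set, 1457126_at, was above the highest Bacillus mean and did not show this pattern. It read 5.46 and 5.36 in Ik1ER cells with 4OHT, 5.50 and 5.32 in Ik1ER cells with ethanol, 5.61 and 5.66 in MigR1 cells with 4OHT, and 5.64 and 5.51 in MigR1 cells with ethanol. The Ik1ER arrays overlapped between treatments, with a 95% interval of the difference from -0.22 to 0.22, and all 4 Ik1ER arrays lay below all 4 MigR1 arrays. The brighter probe set had a difference of 2.07, so the values of the 2 probe sets of Myl4 disagree, a description without a test.

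Tktl1 was read alike by its 2 brighter probe sets. Probe set 1449567_at had 8.23 and 7.97 in Ik1ER cells with 4OHT, 6.27 and 5.94 in Ik1ER cells with ethanol, 6.52 and 6.13 in MigR1 cells with 4OHT, and 6.57 and 6.21 in MigR1 cells with ethanol. Replicate 1 was the higher array in all 4 groups, and the Ik1ER 4OHT arrays still stood at least 1.40 above the rest. The difference was 1.99 (SE 0.18), or 3.98-fold, with 1.96 when the replicate 2 arrays were left out.

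Probe set 1420064_s_at of Tktl1 read 8.02 and 7.82 in Ik1ER cells with 4OHT, 5.95 and 5.93 in Ik1ER cells with ethanol, 6.17 and 5.85 in MigR1 cells with 4OHT, and 6.24 and 5.61 in MigR1 cells with ethanol. Its difference of 1.98 (SE 0.20), or 3.94-fold, was close to that of 1449567_at. The third, 1420065_at, is annotated to the same clone sequence but was dim, with 4.85 and 5.15 in Ik1ER cells with 4OHT, 4.43 and 4.55 in Ik1ER cells with ethanol, 4.57 and 4.38 in MigR1 cells with 4OHT, and 4.27 and 4.26 in MigR1 cells with ethanol. It was separated by only 0.28 and its difference was 0.51 (SE 0.12), or 1.42-fold.

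Igfbp7 was higher on 1 bright probe set and level on another. Probe set 1423584_at read 8.78 and 8.49 in Ik1ER cells with 4OHT, 6.80 and 6.72 in Ik1ER cells with ethanol, 6.83 and 7.0 in MigR1 cells with 4OHT, and 6.79 and 6.83 in MigR1 cells with ethanol. The gap to the other 6 arrays was 1.49 and the difference was 1.87 (SE 0.11), or 3.66-fold, and 1.97 without the replicate 2 arrays. Probe set 1437804_at, also above the highest Bacillus mean, read 7.28 and 7.03 in Ik1ER cells with 4OHT, 7.14 and 7.14 in Ik1ER cells with ethanol, 7.09 and 7.18 in MigR1 cells with 4OHT, and 7.28 and 7.26 in MigR1 cells with ethanol. Its Ik1ER arrays overlapped between treatments, and its Ik1ER difference was 0.01 (SE 0.10), against the 1.87 of 1423584_at.

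The third Igfbp7 probe set, 1423585_at, was dim. It read 4.21 and 4.12 in Ik1ER cells with 4OHT, 3.76 and 3.72 in Ik1ER cells with ethanol, 3.73 and 3.76 in MigR1 cells with 4OHT, and 3.98 and 3.85 in MigR1 cells with ethanol. The Ik1ER 4OHT arrays were the highest, by 0.14, with a difference of 0.43 (SE 0.08), or 1.35-fold. In MigR1 cells both 4OHT arrays lay below both ethanol arrays, with a difference of -0.17 (SE 0.08).

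Pecam1, read by 1 probe set, had the smallest difference among the bright and separated probe sets. Probe set 1421287_a_at read 8.61 and 8.41 in Ik1ER cells with 4OHT, 7.68 and 7.75 in Ik1ER cells with ethanol, 7.88 and 7.95 in MigR1 cells with 4OHT, and 7.97 and 7.85 in MigR1 cells with ethanol. The Ik1ER 4OHT arrays stood at least 0.44 above the rest, and the Ik1ER ethanol arrays were the lowest. The difference between treatments in Ik1ER cells was 0.79 (SE 0.10), or 1.73-fold, and 0.93 without the replicate 2 arrays. Pecam1 thus differs by less between treatments than the brightest probe sets of the other 4 genes.

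4OHT in MigR1 cells, which lack the Ik1ER protein, was the comparison that did not choose the genes, and here 0 of the 12 probe sets was called by limma at an adjusted p under 0.05. Of all 45037 probe sets 0.0% was called, with a lowest adjusted p of 0.14, so the members do not stand out from the array in this respect. At an unadjusted p under 0.05, limma passed 2 of the 12 member probe sets and 2.13% of all probe sets. The 12 differences ran from -0.17 to 0.28, with a median of 0.04.

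**Figure D2:**
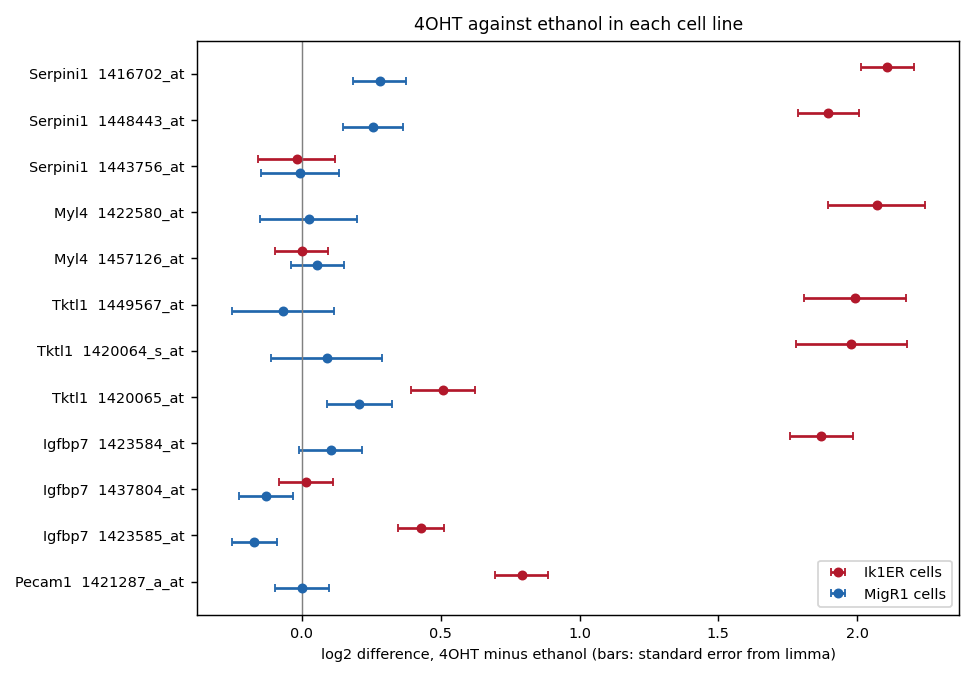
Log2 difference between 4OHT and ethanol (horizontal axis) of the 12 probe sets in Ik1ER cells and in MigR1 cells, with bars of 1 standard error from limma. The 12 values run from -0.17 to 0.28 in MigR1 cells and from -0.02 to 2.11 in Ik1ER cells, where the genes were chosen for a rise.

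The 2 probe sets that passed without adjustment were the bright ones of Serpini1. In MigR1 cells 1416702_at was 0.28 higher with 4OHT (SE 0.10, 95% interval 0.06 to 0.50, limma's unadjusted p = 0.020, adjusted p = 1.0), and both 4OHT arrays lay above both ethanol arrays. Likewise 1448443_at was 0.26 higher with 4OHT (95% interval 0.003 to 0.51, limma's unadjusted p = 0.048, adjusted p = 1.0). Neither passed after adjustment over all probe sets. For Myl4 1422580_at the MigR1 difference was 0.02 (95% interval -0.38 to 0.43) and for Tktl1 1449567_at it was -0.07 (-0.49 to 0.36). For Igfbp7 1423584_at it was 0.10, and for Pecam1 it was 0.0002 (-0.22 to 0.22). These intervals describe the MigR1 differences alone and do not show that 4OHT had no effect there. Whether they differ from the Ik1ER differences was not tested, because the Ik1ER values chose the genes.

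Without 4OHT the lines read the 5 genes at near levels. The Ik1ER minus MigR1 difference in ethanol ran from -0.29 to 0.22 over the 12 probe sets, whereas in 4OHT it ran from -0.22 to 2.05. In ethanol the value was -0.03 for Serpini1 1416702_at, 0.001 for Myl4 1422580_at, -0.29 for Tktl1 1449567_at, -0.05 for Igfbp7 1423584_at and -0.19 for Pecam1. In 4OHT the value was 1.80 for Serpini1 1416702_at, 2.05 for Myl4 1422580_at, 1.77 for Tktl1 1449567_at, 1.72 for Igfbp7 1423584_at and 0.60 for Pecam1. These comparisons share the arrays that chose the genes and carry no test.

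Other genes of the members' families gave 5 lists, 87 genes in all, of which 78 were measured. In Ik1ER cells limma called 3.70% of the 18193 genes for 4OHT, 2.03% higher and 1.67% lower. In the lists, 2 genes rose and 2 fell. In MigR1 cells 0 of the list genes was called. The medians of the 5 lists lay between -0.06 and 0.03 in Ik1ER cells, beside a median of -0.004 over all genes.

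**Figure D3:**
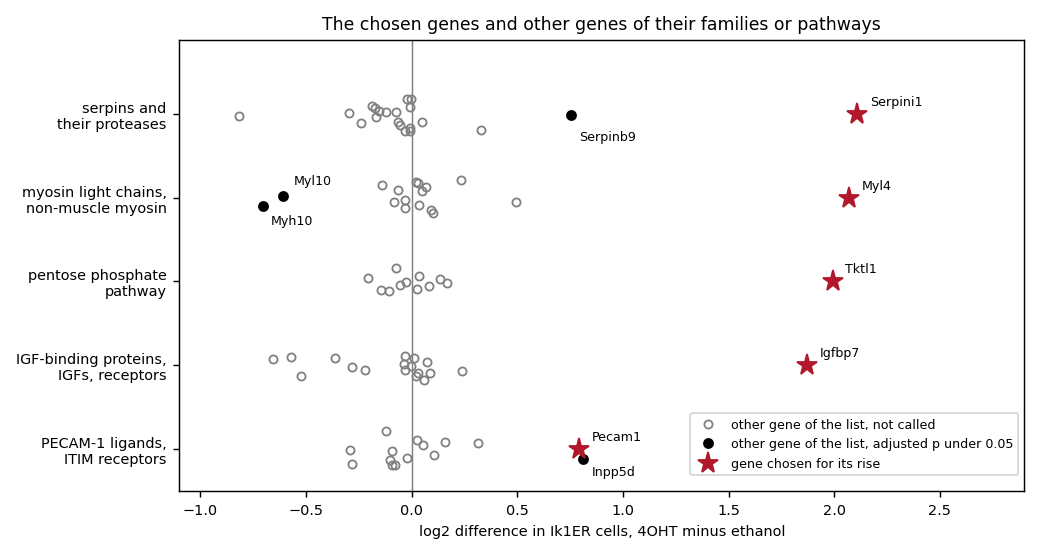
Log2 difference between 4OHT and ethanol in Ik1ER cells (horizontal axis) of each measured gene in the 5 family lists, 1 row per list, with the members marked apart. Most list genes lie close to 0. The members were chosen for their rise in this contrast, so nothing is read from their place beside their lists. Pecam1 at 0.79 lies beside Inpp5d at 0.81.

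Among serpins and the proteases they inhibit, 20 of 25 listed genes were measured and 7 were above the highest Bacillus mean. Serpinb9, the intracellular inhibitor of granzyme B, rose. It read 7.41 and 7.76 in Ik1ER cells with 4OHT, 6.79 and 6.87 in Ik1ER cells with ethanol, 7.07 and 7.05 in MigR1 cells with 4OHT, and 6.89 and 6.80 in MigR1 cells with ethanol. The difference was 0.75 (SE 0.12, limma adjusted p = 0.020). The other 19 genes were not called. Serpinb6b had -0.82 (adjusted p = 0.15), Serpinh1, a collagen chaperone, -0.24 (adjusted p = 0.28) and Serpina1b, an antitrypsin, -0.29 (adjusted p = 0.29). Plat, tissue plasminogen activator and the protease that neuroserpin inhibits, read 4.15 to 4.42 on the 8 arrays, below the highest Bacillus mean. The Serpinb9 call was lost when either Ik1ER ethanol array or either MigR1 4OHT array was left out, with an adjusted p of up to 0.13, and without both Ik1ER replicate 2 arrays (0.097).

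Among myosin light chains, non-muscle myosin and their kinases, 16 of 17 genes were measured, 11 above the highest Bacillus mean, and 2 fell. Myl10, a regulatory light chain described in precursor lymphocytes, read 7.20 and 7.06 in Ik1ER cells with 4OHT, 7.78 and 7.69 in Ik1ER cells with ethanol, 7.73 and 7.57 in MigR1 cells with 4OHT, and 7.73 and 7.63 in MigR1 cells with ethanol, a difference of -0.61 (SE 0.09, adjusted p = 0.019). Myh10, a non-muscle myosin heavy chain, read 9.59 and 9.89 in Ik1ER cells with 4OHT, 10.37 and 10.52 in Ik1ER cells with ethanol, 10.26 and 10.28 in MigR1 cells with 4OHT, and 10.35 and 10.35 in MigR1 cells with ethanol, a difference of -0.71 (SE 0.11, adjusted p = 0.020). Both Ik1ER 4OHT arrays were the lowest of the 8 for both genes, opposite to Myl4. Mylpf, a fast muscle light chain, had 0.49 (adjusted p = 0.13), Myl6b 0.23 (adjusted p = 0.63) and Mylk, the light chain kinase, -0.14 (adjusted p = 0.65). The calls of Myl10 and Myh10 were lost when either Ik1ER ethanol array was left out, that of Myl10 also without Ik1ER 4OHT replicate 2, and that of Myh10 also without either MigR1 4OHT array, with adjusted p of up to 0.13 and 0.14. Without both Ik1ER replicate 2 arrays the adjusted p was 0.15 for Myl10 and 0.04996 for Myh10.

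In the pentose phosphate pathway, which makes ribose and NADPH, 11 of 12 genes were measured, 9 above the highest Bacillus mean, and none was called in Ik1ER cells, with a lowest adjusted p of 0.40. Taldo1, transaldolase, had 0.17 (adjusted p = 0.40), Tktl2, another transketolase relative, -0.20 (adjusted p = 0.50) and Pgd, phosphogluconate dehydrogenase, 0.13 (adjusted p = 0.55). The 3 probe sets of Tkt, transketolase itself, had 0.11, -0.06 and -0.07. Of all genes, 3.7% were called. Tktl1 itself was chosen for its difference in Ik1ER cells and was not tested, so no contrast with these enzymes is drawn.

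Among IGF-binding proteins, IGFs, their receptors and adaptors, all 17 genes were measured, 10 above the highest Bacillus mean, and none was called. Irs1, an adaptor of the insulin and IGF receptors, had -0.66 (SE 0.17, adjusted p = 0.11), Igfbpl1, a relative of Igfbp7, -0.36 (adjusted p = 0.14) and Igf1 -0.28 (adjusted p = 0.43). The 3 smallest p-values of the list thus belonged to negative differences, none of which passed.

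The list around PECAM-1, with ligands, phosphatases and other receptors that carry inhibitory tyrosine motifs, had 14 of 16 genes measured and 7 above the highest Bacillus mean. Inpp5d, the inositol phosphatase SHIP1 that acts downstream of inhibitory receptors, rose. It read 8.47 and 8.42 in Ik1ER cells with 4OHT, 7.66 and 7.61 in Ik1ER cells with ethanol, 7.69 and 7.66 in MigR1 cells with 4OHT, and 7.76 and 7.68 in MigR1 cells with ethanol. The difference was 0.81 (SE 0.08, adjusted p = 0.0027), and the call was kept with each array left out in turn. Without both replicate 2 arrays of Ik1ER cells the adjusted p was 0.053 at a difference of 0.81. The effect of 4OHT was 0.86 larger in Ik1ER cells than in MigR1 cells (limma adjusted p = 0.027), a difference for which 0.599% of all genes were called. Its other probe set, 1424195_a_at, had 0.56 (adjusted p = 0.071). Of the rest, Pilra had -0.29 (adjusted p = 0.19), Ptpn6, the phosphatase SHP-1, -0.28 (adjusted p = 0.34) and Itgb3, integrin β3, 0.32 (adjusted p = 0.65).

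Markers of cell types in which the 5 genes are best known were measured beside them. Of 15 endothelial markers, all measured, 0 was called on the probe set standing for its gene. In Ik1ER cells 3.70% of all genes were called for 4OHT. In lists this short 0 calls is close to that share, so nothing is read from these counts. The 7 above the highest Bacillus mean were Kdr, Flt1, Esam, Eng, Egfl7, Plvap and Ramp2. Those not above it were Cdh5, Tek, Tie1, Emcn, Vwf, Cldn5, Robo4 and Cd34. Over all 15 the mean level was 4.85 to 4.97 with 4OHT and 4.95 to 5.02 with ethanol in Ik1ER cells. In MigR1 cells it was 4.90 to 4.93 with 4OHT and 4.96 to 4.99 with ethanol. Egfl7, an angiogenic factor secreted by endothelium, had -0.43 (adjusted p = 0.18), and another of its probe sets, 1421335_a_at, fell by 0.40 (adjusted p = 0.040). Of 14 striated muscle markers, 0 was called and 4 were above the highest Bacillus mean, with mean levels of 4.59 to 4.69 in Ik1ER cells with 4OHT and 4.56 to 4.68 on the other 6 arrays. Of 11 neuronal markers, 0 was called and 3 were above it, with mean levels of 4.71 to 4.72 in Ik1ER cells with 4OHT and 4.62 to 4.72 on the other 6 arrays. None of the 6 platelet markers measured was called either, 3 of them above the highest Bacillus mean.

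Some T cell and myeloid markers were called for 4OHT in Ik1ER cells, where 3.70% of all genes were called. Of the 12 T cell markers, Cd2, Cd4, Cd8a and Ptprc rose and Cd3e and Cd3g fell, and each of these 6 calls was lost when some single array was left out. Those of Cd3e and Ptprc were lost with any single array left out. For the difference between the effects in Ik1ER and MigR1 cells, none of the 12 markers was called. The mean level over all 12 was 10.42 to 10.53 in Ik1ER cells with 4OHT, against 10.11 to 10.24 on the other 6 arrays. Of 8 myeloid markers, Itgam rose, at a level below the highest Bacillus mean, and Lyz2 and Cd14 fell. For the difference between the effects, Cd14 alone of the 8 was called. Without both Ik1ER replicate 2 arrays the calls of Itgam and Lyz2 were lost, with adjusted p of 0.12 and 0.052, and both were also lost when some single arrays were left out. Cd14, an endotoxin co-receptor, had 5.60 and 5.70 in Ik1ER cells with 4OHT, 6.95 and 6.88 in Ik1ER cells with ethanol, 6.88 and 6.66 in MigR1 cells with 4OHT, and 6.79 and 6.67 in MigR1 cells with ethanol, a difference of -1.26 (SE 0.10, adjusted p = 0.0015), and 0.037 was the adjusted p without both Ik1ER replicate 2 arrays. The part of these marker changes in the values of the 5 genes was not tested.

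Genes next to the 5 members on the chromosome, taken from the RefSeq gene table, were compared in the same fit. Of 10 neighbours 9 were measured, 8 above the highest Bacillus mean. In Ik1ER cells 1 was called, beside 3.70% of all genes. Flna, the actin cross-linker filamin A beside Tktl1, read 9.58 and 9.80 in Ik1ER cells with 4OHT, 8.87 and 9.08 in Ik1ER cells with ethanol, 9.03 and 8.85 in MigR1 cells with 4OHT, and 9.06 and 8.99 in MigR1 cells with ethanol. It rose by 0.71 (SE 0.12, adjusted p = 0.022). The call was lost without Ik1ER 4OHT replicate 2 and without any single ethanol array, with an adjusted p of up to 0.14, and without both Ik1ER replicate 2 arrays (0.11). The difference between its effects in Ik1ER and MigR1 cells was 0.80 (adjusted p = 0.13) and did not pass. Between the lines in 4OHT, Flna was higher in Ik1ER cells by 0.75 (limma adjusted p = 0.020).

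**Figure D4:**
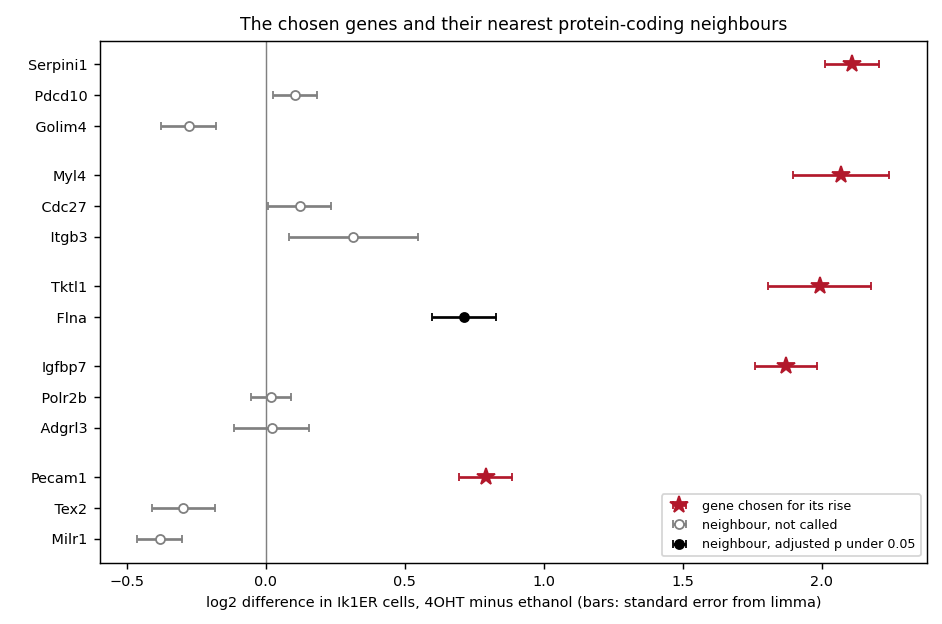
Log2 difference between 4OHT and ethanol in Ik1ER cells (horizontal axis) of each member and of the protein-coding gene on either side of it, with bars of 1 standard error from limma. The neighbours run from -0.38 to 0.71 and Flna is the one that was called.

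The other neighbours differed by less. Beside Serpini1, Pdcd10 had 0.11 (adjusted p = 0.66) and Golim4 -0.28 (adjusted p = 0.27). Beside Myl4, Cdc27, a subunit of the anaphase-promoting complex, had 0.12 (adjusted p = 0.74) and Itgb3 the 0.32 given above. Beside Igfbp7, Polr2b, a subunit of RNA polymerase II, had 0.02 (adjusted p = 0.95) and the dim Adgrl3, a latrophilin, had 0.02 (adjusted p = 0.97). Beside Pecam1, Tex2 had -0.30 (adjusted p = 0.30).

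Milr1, an inhibitory receptor of mast cells on the other side of Pecam1, lay lower in Ik1ER cells with 4OHT, at 7.86 and 7.93, against 8.29 and 8.27 in Ik1ER cells with ethanol, 8.38 and 8.28 in MigR1 cells with 4OHT, and 8.29 and 8.22 in MigR1 cells with ethanol. The Ik1ER difference of -0.38 (SE 0.08) did not pass, at an adjusted p of 0.058. Between the lines in 4OHT, a contrast in which 3.20% of genes were called, it was lower in Ik1ER cells by a log2 difference of -0.43 (adjusted p = 0.041). The difference between its effects in Ik1ER and MigR1 cells was -0.45 (limma adjusted p = 0.21) and did not pass. Pecam1 and Milr1 thus read in opposite directions.

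**Figure D5:**
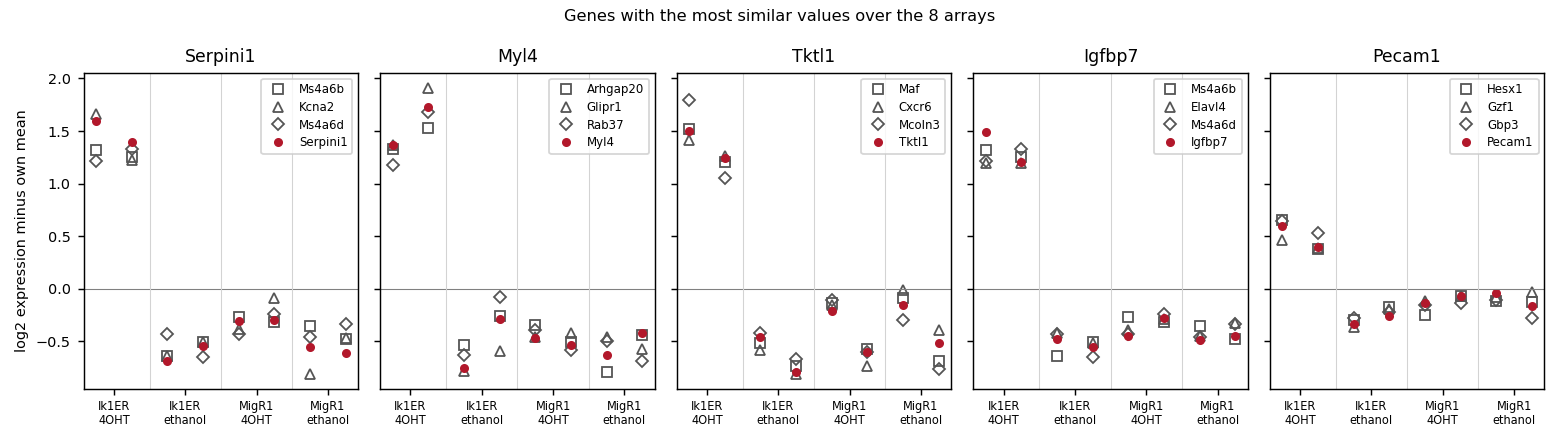
Log2 signal over the 8 arrays, each probe set centred on its own mean (vertical axis), of each member and the 3 genes whose profiles lay nearest to it. In each panel the points of the genes lie close to one another and are highest on the Ik1ER 4OHT arrays.

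Genes whose profile lay nearest to each member were found by the root mean square difference over the 8 arrays after centring each probe set on its mean, a description of likeness with no test. The other members were left out of this ranking. Tktl1 lay nearest to Maf, a transcription factor, at 0.08, then to Cxcr6, a chemokine receptor, at 0.10, and Mcoln3, a cation channel, at 0.17. Maf read 8.41 and 8.09 in Ik1ER cells with 4OHT, 6.37 and 6.15 in Ik1ER cells with ethanol, 6.76 and 6.32 in MigR1 cells with 4OHT, and 6.80 and 6.20 in MigR1 cells with ethanol, with replicate 1 the higher array in each group as for Tktl1. Serpini1 lay nearest to Ms4a6b at 0.14, Kcna2, a potassium channel, at 0.15 and Ms4a6d at 0.20. Igfbp7 lay nearest to Ms4a6b and Elavl4, a neuronal RNA-binding protein, at 0.12 each, and then to Ms4a6d. Ms4a6b and Ms4a6d thus appear beside both Serpini1 and Igfbp7. Ms4a6d, at a mean of 3.84, and Kcna2, at 5.22, were below the highest Bacillus mean.

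Myl4 lay nearest to Arhgap20 at 0.13, Glipr1 at 0.15 and Rab37, a small GTPase, at 0.16. Glipr1, at a mean of 5.16, was below the highest Bacillus mean. Pecam1 lay nearest to Hesx1, a homeobox gene, at 0.06, Gzf1 at 0.07 and Gbp3, a guanylate-binding protein, at 0.08. Among the members themselves, Serpini1 and Igfbp7 were the nearest pair at 0.13 and Myl4 and Tktl1 lay 0.33 apart. Pecam1 lay 0.50 to 0.64 from the other 4.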

How the data were processed

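RNA of the 8 samples was biotin-labelled for Affymetrix arrays. Values in the deposited table are on a log2 scale. Per the submitters' processing notes, RMA was used. Its version, the probe set definitions and the build were not stated there. RMA brings arrays to a common distribution and compresses differences of dim probe sets.

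Of 45101 probe sets, 64 controls were left out. Gene symbols came from the platform annotation: 34945 probe sets had 1 symbol, 932 several and 9160 none. In lists the probe set of highest mean stood for its gene, with those ending in _x_at used only where there was no other. All 8 arrays entered 1 fit of group means in limma 3.58.1 in R 4.3.3 (lmFit, eBayes, 4 residual degrees of freedom), and p-values were adjusted by Benjamini and Hochberg over all 45037 probe sets, with an adjusted p under 0.05 called. Percentages called per gene take the same adjusted p and count 1 probe set for each of the 18193 genes. The fit was tested on simulated data. The number of arrays limits the precision. Errors are SD over 2 arrays or SE from limma.

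All probe sets of the 5 genes are described, and lists name the called genes and up to 3 others of smallest p. The 5 genes, the lists and the tests were chosen with earlier results of these data known. Not analysed here are 5 serpins, Rock2, G6pdx, Cd38, Lilrb4 and Tex28. Alternatives were other normalisations, eBayes settings, the arrays in the fit and the replicate number as a block.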

Additional observations from a re-analysis of the deposited data

Results flagged for a closer look

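The effect of 4OHT on Inpp5d was larger in Ik1ER cells than in MigR1 cells by 0.86 on the log2 scale (limma adjusted p = 0.027), which is the test of the difference itself. Both Ik1ER 4OHT arrays were the highest of the 8.

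The effect of 4OHT on Cd14 differed between the lines by -1.30 (limma adjusted p = 0.018), and both Ik1ER 4OHT arrays were the lowest of the 8.

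For the dim Igfbp7 probe set 1423585_at the effects in Ik1ER and MigR1 cells differed by 0.60. Both 4OHT arrays lay above both ethanol arrays in Ik1ER cells and below them in MigR1 cells. This difference was not tested, because the gene was chosen for its values in Ik1ER cells.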

How the results depend on the processing

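Counts over all probe sets depend on which arrays carry the fit, and the cause was not tested unless the setting itself shows it. For 4OHT in Ik1ER cells, 1126 probe sets were called, against 217 with only the 4 arrays compared, 249 with an absolute log2 fold of at least 1, and 262 without both Ik1ER replicate 2 arrays, a setting chosen after seeing the data. Leaving out 1 array gave 233 to 934, with 233 without Ik1ER ethanol replicate 2. For 4OHT in MigR1 cells, 0 were called, with 1 each under eBayes with trend and robust settings and with 1 probe set per gene (Adm, -1.44), and 0 with any array left out. For the difference between the effects, 177 were called, against 268 with a replicate block, 403 with trend and robust settings and 40 without both Ik1ER replicate 2 arrays, and 11 to 186 with 1 array left out. The arrays share replicate numbers only. Correlations of replicate differences were 0.43 between the Ik1ER groups and 0.22 between the MigR1 groups. Between groups of different lines they ran from -0.02 to 0.23. With the replicate block the Ik1ER count was 1351 and the MigR1 count 0. Values close to 0 changed sign: in MigR1 cells Serpini1 1443756_at (0.0094 with arrays centred, -0.18 to 0.16 with 1 array left out), Pecam1 (-0.0208 with quantile normalisation repeated, -0.0594 to 0.0597), Myl4 1422580_at (-0.0786 to 0.13), Myl4 1457126_at (-0.009 to 0.12), Tktl1 1449567_at (-0.26 to 0.12) and Tktl1 1420064_s_at (-0.23 to 0.40). In Ik1ER cells these were Cdc27 (-0.023 to 0.27), Adgrl3 (-0.18 without both replicate 2 arrays, -0.16 to 0.21), Serpini1 1443756_at (-0.12 to 0.08) and Igfbp7 1437804_at (-0.11 to 0.14), and Myl4 1457126_at, fitted at 0, ran from -0.09 to 0.09. Over all alternatives the Ik1ER difference was 2.01 to 2.28 for Serpini1 1416702_at, 1.84 to 2.30 for Myl4 1422580_at, 1.83 to 2.15 for Tktl1 1449567_at, 1.73 to 2.01 for Igfbp7 1423584_at and 0.69 to 0.93 for Pecam1. Of 1153 single-gene values recomputed, 36 changed sign, 20 of them within a line and 16 in comparisons between the lines or their effects. As reported, the values that changed sign were at most 0.13 in size. Calls were lost by 78 values. Only the list and neighbour genes called in Ik1ER cells had a call to lose, so 1153 is not the base of this count. Probe sets near the Bacillus controls have differences that the signal over background limits.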

Other observations

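Igfbp4, an IGF-binding protein of the list around Igfbp7, had arrays that differed widely within every group on probe set 1437405_a_at, named after its values were seen. It read 7.07 and 6.39 in Ik1ER cells with 4OHT, 7.59 and 7.02 in Ik1ER cells with ethanol, 7.93 and 6.20 in MigR1 cells with 4OHT, and 7.65 and 6.04 in MigR1 cells with ethanol. Its 4OHT difference in Ik1ER cells was -0.57 (SE 0.64, limma adjusted p = 0.80).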
